A study of Danio rerio with 10 samples.

Results

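The lysosomal genes described here are those whose names, in count tables of messenger RNA from sorted zebrafish neutrophils, mark them as proton pump subunits, cathepsins, lysosomal hydrolases, lysosomal membrane proteins or the transcription factors TFE3 and TFEB. The pattern reads the gene name and no measured value, but it was drawn up with earlier results of these data known, and it found 71 of the 15335 genes listed. A name does not place a protein in the lysosome, and some members of these families work elsewhere. The roles given below are those known from mammals. Of the 71 genes, 21 name proton pump subunits, 15 cysteine cathepsins or legumain, 2 aspartic or serine peptidases, 17 glycosidases or sulfatases, 5 lipid handling proteins, 8 membrane proteins and 3 transcription factors.

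The 5 libraries came from larvae of Danio rerio in the AB background at 3 days post fertilization. Neutrophils, fast-moving phagocytes of innate immunity, were sorted by fluorescence (FACS) from transgenic fish that expressed either the microRNA miR-199 (3 libraries, replicates 1, 2 and 3) or a vector control (2 libraries, replicates 1 and 3), in both groups with a GFP reporter. The SMART-Seq v4 low-input kit was used for the libraries, and the comparison was made to find targets of miR-199. The promoter that drives the transgene, the number of lines and the number of larvae pooled are not given in the sources used here, and nothing says that the libraries of a group came from separate clutches, so p-values measure only the spread between these libraries.

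Lysosomes are acidified by the vacuolar proton pump (V-ATPase). Its cytosolic V1 sector splits ATP, and its membrane-bound V0 sector carries the protons across. The acid activates cathepsins and other hydrolases, which degrade material taken up by phagocytosis or delivered by autophagy. TFEB and TFE3 are relatives of MITF that bind promoters of many lysosomal genes and raise their transcription. In phagocytes such as neutrophils, lysosome-related organelles also store enzymes for release or for delivery to the phagosome.

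Totals ran from 12339928 to 17024134 counts per library, and the 71 genes took 0.861% and 0.868% of the counts in the vector libraries against 0.765% to 0.808% in the miR-199 libraries. Expression correlated over 8897 genes at a Pearson r of 0.994 between the vector libraries. Among the miR-199 libraries r was 0.977 between replicates 2 and 3 and at most 0.952 with replicate 1, which thus stood further from the other two. The miR-199 hairpin gene mir199-2a, a check of the labels, was counted 26 and 15 times with the vector and 137, 44 and 53 times with miR-199, without overlap.

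Expression is given below as CPM, the counts of a gene scaled to a library of 1000000 counts in the genes tested after TMM scaling, in the order vector replicates 1 and 3, then miR-199 replicates 1, 2 and 3. Fold changes are log2 of miR-199 over vector with their standard error (SE), and a gene was called when its edgeR quasi-likelihood p-value, adjusted over all 8897 genes tested, was under 0.05. In sorted bulk samples, fewer cells of a type and less RNA per cell cannot be told apart.

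In neutrophils with miR-199, transcripts of 4 of the 7 tested V1 subunits and of both tested accessory proteins of the pump, of 2 cathepsins S and of 2 glycosidases fell, while the transcription factor tfe3a, the V0 subunit atp6v0a1a, the sialidase neu4 and the sulfatase gnsa rose. Of the 71 genes, 54 had enough counts to be tested and 17 did not. By edgeR 14 of the 54 tested genes were called, 25.9%, beside 19.9% of all genes tested. Of the 14, 4 were called higher (28.6%) and 10 lower, while 47.6% of all 1772 genes called were higher. Of all 8897 genes tested, 844 (9.49%) were called higher and 928 (10.4%) lower. Of the 54, 36 were fitted lower and 18 higher, with a median log2 fold change of -0.21 against 0.02 for all genes tested. The groups did not overlap in 37 of the 54, 68.5% (13 higher, 24 lower), beside 57.3% of all genes tested.

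The calls changed with the libraries used. With either vector library left out, 0 of the lysosomal genes were called by edgeR, although 15 (without replicate 1) and 14 (without replicate 3) had an unadjusted p under 0.05. Of all genes, 2 and 0 were then called, with 1815 and 1598 at an unadjusted p under 0.05. Without miR-199 replicate 2, 8 of the 14 calls were kept, namely 3 higher and 5 lower, and 926 of all genes were called (10.6%). Scaling by library totals alone, which raised the median of all genes by 0.13 on the log2 scale, gave 9 lysosomal genes called higher and 8 lower. Of all genes, 1139 were then called higher and 674 lower.

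**Figure D1:**
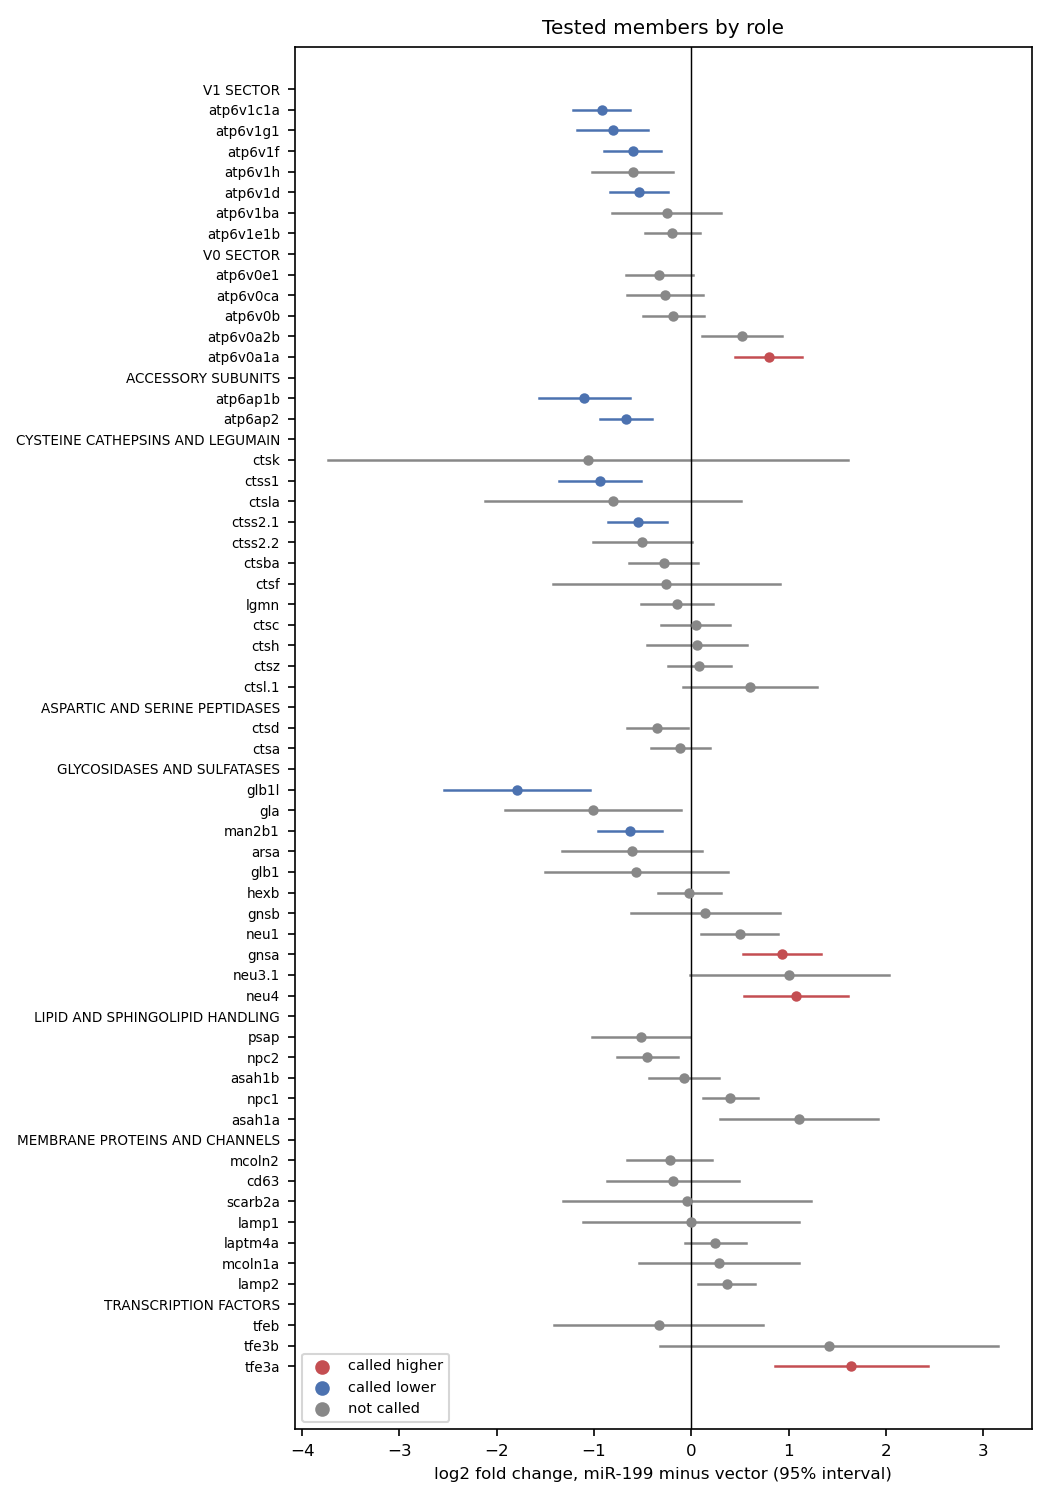
Log2 fold change (x axis, miR-199 minus vector) of each tested lysosomal gene, grouped by role on the y axis, with the 95% interval as a line. Red genes were called higher and blue genes lower; all 7 tested V1 genes lie left of 0, and the V0 gene atp6v0a1a and the transcription factor gene tfe3a lie to the right.

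Some cell type markers also differed between the groups, in both directions. The summed level of 9 neutrophil marker genes was 79433 and 85888 CPM in the vector libraries and 54991 to 59849 CPM in the miR-199 libraries. Of the 8 tested, 6 were fitted lower and 2 higher, with a median log2 fold change of -0.70. Of the 8, 3 (lyz, lect2l and mmp9) fell, 37.5% beside 19.9% of all genes tested. The others fitted lower, mpx (-0.87, edgeR adjusted p = 0.0637), mmp13a (-1.28) and npsn (-0.22), were not called. The 2 fitted higher were cpa5 (0.58, edgeR adjusted p = 0.0553) and cebpa (0.76, edgeR adjusted p = 0.0793). Both were higher in every miR-199 library without being called. The 12 genes listed as keratinocyte markers summed to 14326 to 14438 CPM against 5577 to 7182 CPM, mostly from pfn1. Whether the pfn1 counts came from keratinocytes was not tested, and krt4 had at most 4.24 CPM in any library. Of the 5 tested genes of this list 2 fell (pfn1 and krt91), 40.0% beside 19.9% of all genes tested. Without pfn1 that sum was 2945 and 2136 CPM against 1695, 2320 and 2475 CPM, which overlap. Nearly all of this remainder was icn, with 2922 and 2116 CPM against 1688, 2296 and 2461 CPM. Of those 12 keratinocyte markers, krt5, krt92, cyt1, cyt1l and epcam were at 0 in all libraries. Of 10 macrophage markers found, mpeg1.1, c1qa, c1qb and c1qc were at 0, and the list summed to 15.7 to 19.6 CPM in vector and 16.2 to 36.7 CPM in miR-199 libraries, mostly from cd74a. The erythroid markers summed to 2.34 to 2.36 CPM against 9.35 to 14.4 CPM, nearly all from epor, which rose. Of the 7 found, 5 were at 0. The remaining gene, hbbe1.1, was counted 1 and 2 times with the vector and 0 times in each miR-199 library. The part that these shifts have in the lysosomal results was not tested. Of all genes listed on several sequences, an alternate among them, 77.0% had at most 2 counts in every library. The listed positions of the markers are not given here, so a marker at 0 does not show that it was not expressed.

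At the level of single genes, the cathepsin S genes ctss1 and ctss2.1 were the most abundant lysosomal transcripts per length in the vector libraries. In RPKM, the CPM per kilobase of listed gene length, the vector level was 673 ± 28.5 for ctss1 and 570 ± 11.6 for ctss2.1 (mean ± SD, n = 2). The V0 gene atp6v0e1 followed at 523 ± 4.76 RPKM, then the saposin precursor psap at 341 ± 42.6 and the cholesterol carrier npc2 at 249 ± 6.10. The next 4, atp6ap1b, atp6ap2, laptm4a and lamp2, lay between 202 and 220 RPKM and differed by less than the SD of atp6ap1b, which was 21.8. In the miR-199 libraries the ranges of the first 3 overlapped, with 352 ± 62.2 RPKM for ctss1, 389 ± 27.9 for ctss2.1 and 417 ± 48.2 for atp6v0e1 (mean ± SD, n = 3).

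Of the 10 V1 genes, 7 were tested, all 7 were fitted lower (median -0.60) and 4 fell, 57.1% beside 10.4% of all genes called lower. Of all 8897 genes tested, 4361 were fitted lower. The summed level of the V1 genes was 1013 and 1068 CPM in the vector libraries and 637, 724 and 685 CPM in the miR-199 libraries, so the groups did not overlap. All 7 stayed lower under each other scaling, under DESeq2 and with each library left out in turn. For 6 of the 7 the groups did not overlap, so leaving out 1 library could hardly reverse their direction. Without miR-199 replicate 2 only 2 of the 4 were called (atp6v1c1a and atp6v1g1).

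The gene atp6v1c1a (chr16:52748295-52767590, GRCz11, plus strand, 13 listed exons) encodes subunit C, which holds V1 to V0 and leaves when the pump comes apart. It had 184 and 183 CPM in the vector libraries and 89.7, 104 and 97.0 CPM in the miR-199 libraries. Both vector libraries were nearly equal and far above every miR-199 library. The log2 fold change was -0.92 (SE 0.12, edgeR adjusted p = 0.00914).

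Subunit G, part of the stalk that joins the sectors, is encoded by atp6v1g1, which is listed only on an alternate sequence of chromosome 5. Its levels were 110 and 106 CPM against 68.5, 53.0 and 63.5 CPM, with all miR-199 libraries below both vector libraries. It fell by 0.81 on the log2 scale (SE 0.15, edgeR adjusted p = 0.0191).

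The small stalk subunit F gene atp6v1f (chr4:20049064-20051160, minus strand) measured 194 and 199 CPM against 119, 135 and 135 CPM. It fell by 0.60 on the log2 scale (SE 0.12, edgeR adjusted p = 0.0231). Its groups did not overlap, and the call was lost without miR-199 replicate 2 (edgeR adjusted p = 0.0530). Subunit D, the central shaft that turns inside the pump, is encoded by atp6v1d (chr20:51088606-51100669, minus strand), with 117 and 115 CPM against 84.1, 73.0 and 82.5 CPM. It fell by 0.54 on the log2 scale (SE 0.12, edgeR adjusted p = 0.0335), and again no miR-199 library reached a vector library. This call was lost without miR-199 replicate 2 (edgeR adjusted p = 0.0686) and with library totals alone (edgeR adjusted p = 0.0717).

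Among the V1 genes that were not called, the regulatory subunit H gene atp6v1h had 284 and 329 CPM against 171, 237 and 198 CPM. Its fold change, -0.60 (95% interval -1.02 to -0.19), was as large as that of atp6v1f, but its libraries were more spread (edgeR adjusted p = 0.0565). DESeq2 called it. For atp6v1e1b (stalk subunit E) and atp6v1ba (a catalytic-head subunit B) the fold changes were -0.19 and -0.25, with intervals that include 0. The gene atp6v1ba is listed on both a chromosome and an alternate sequence, so its counts are uncertain. The other 3 V1 genes, atp6v1aa, atp6v1b2 and atp6v1c1b, had at most 2 counts in any library. Of these, atp6v1aa and atp6v1c1b are likewise listed on both a chromosome and an alternate sequence. Their counts are uncertain, and the summed V1 level may miss them.

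Both tested accessory genes fell, beside 10.4% of all genes called lower. The gene atp6ap1b (chr23:26079473-26094181, plus strand) encodes a relative of ATP6AP1, a glycoprotein that helps the V0 sector assemble. It had 480 and 552 CPM in the vector libraries and 193, 292 and 238 CPM in the miR-199 libraries, the lowest value being in replicate 1. The groups were well apart, and the gene fell by 1.099 on the log2 scale, a 2.14-fold lower level (SE 0.19, edgeR adjusted p = 0.0169). The gene atp6ap2 (chr22:11123487-11136748, minus strand) encodes the prorenin receptor, whose membrane part belongs to the pump. It had 342 and 359 CPM against 224, 214 and 222 CPM, with narrow and separate groups, and fell by 0.67 on the log2 scale (SE 0.11, edgeR adjusted p = 0.0150). The third accessory gene, atp6ap1lb, was at 0 in all libraries.

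Of 8 V0 genes, 5 were tested, and 3 were fitted lower and 2 higher (median -0.18). Of the 5, 1 was called, a share close to the 19.9% of all genes tested. That gene, atp6v0a1a (chr3:16922277-16973124, plus strand), encodes an isoform of subunit a, which forms the proton half-channels and directs the pump to a membrane. It had 131 and 147 CPM in the vector libraries and 231, 225 and 269 CPM in the miR-199 libraries. Every miR-199 library was above both vector libraries, and the gene rose by 0.80 on the log2 scale (SE 0.14, edgeR adjusted p = 0.0173).

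The other tested subunit a gene, atp6v0a2b, had 39.9 and 37.0 CPM against 47.0, 57.8 and 60.3 CPM, without overlap but not called (log2 fold change 0.52, 95% interval 0.11 to 0.93, edgeR adjusted p = 0.0794). It was called with library totals alone, with DESeq2 and without miR-199 replicate 1. The abundant V0 subunit gene atp6v0e1 had 410 and 415 CPM against 286, 357 and 344 CPM (log2 fold change -0.33, 95% interval -0.67 to 0.01, edgeR adjusted p = 0.149). For atp6v0b, a subunit of the proton-carrying ring, the levels 183 and 198 CPM overlapped with 157, 184 and 162 CPM (log2 fold change -0.18, 95% interval -0.50 to 0.13, edgeR adjusted p = 0.344). The ring gene atp6v0ca had a fold change of -0.27. The V0 genes summed to 882 and 906 CPM against 799, 925 and 939 CPM, which overlap. The difference between the sectors was not tested.

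**Figure D2:**
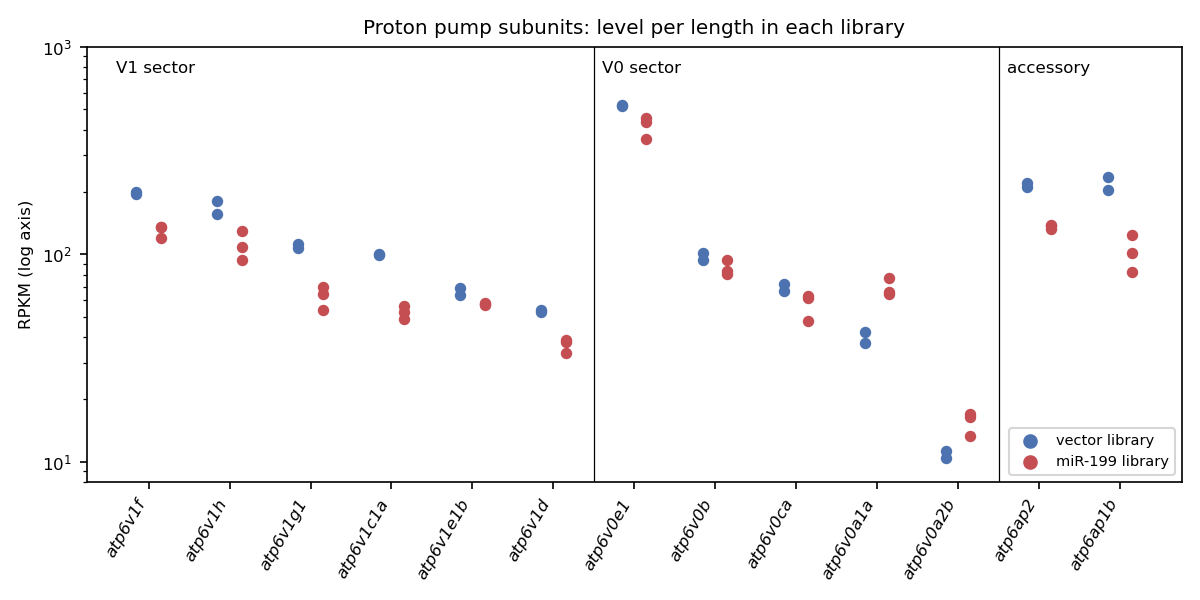
Level of the tested proton pump genes in each library in RPKM (y axis, log scale), by sector, with 1 point per library. The gene atp6v1ba, listed on both a chromosome and an alternate sequence, is not shown. For the called V1 and accessory genes the red miR-199 points lie below the blue vector points, and for atp6v0a1a they lie above.

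Of the 15 genes for cysteine cathepsins and legumain, 12 were tested, with 8 fitted lower and 4 higher (median -0.27). Of the 12, 2 were called, both lower, 16.7% beside 19.9% of all genes tested. The 2 called genes encode cathepsins S, proteases that in mammals stay active near neutral pH and trim the invariant chain in antigen-presenting cells. For ctss1 (chr19:310548-317525, plus strand) the levels were 1072 and 1138 CPM in the vector libraries and 548, 493 and 691 CPM in the miR-199 libraries. The vector values were close together and the groups far apart. The gene fell by 0.94 on the log2 scale (SE 0.17, edgeR adjusted p = 0.0190).

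The neighbouring genes ctss2.1 (chr16:29509127-29513434) and ctss2.2 (chr16:29514496-29519955) lie on the plus strand, and how the counting split reads between such near copies is uncertain. For ctss2.1 the levels were 713 and 693 CPM against 441, 490 and 507 CPM. The groups did not overlap, and the gene fell by 0.55 on the log2 scale (SE 0.12, edgeR adjusted p = 0.0312). With library totals alone it was not called (edgeR adjusted p = 0.0583). The rarer ctss2.2 had a similar fold change, -0.51 (95% interval -1.02 to 0.00), and was not called. Without miR-199 replicate 2 neither ctss1 (edgeR adjusted p = 0.0520) nor ctss2.1 (edgeR adjusted p = 0.0701) was called.

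The other cathepsins were not called by edgeR, and of them only ctsd had an unadjusted p under 0.05; DESeq2 called none of them either. Cathepsin C, which in mammals activates the serine proteases of neutrophil granules, had overlapping levels of 174 and 153 CPM against 157, 191 and 159 CPM for ctsc (log2 fold change 0.04, 95% interval -0.31 to 0.39). For ctsba, a cathepsin B, the fold change was -0.29, for the asparaginyl protease gene lgmn -0.15, and for ctsz 0.08. The genes ctsf, ctsh, ctsk, ctsl.1 and ctsla had at most 28.6 CPM in any library and fold changes of -1.06 to 0.60. The aspartic protease gene ctsd had 198 and 220 CPM against 151, 179 and 163 CPM (log2 fold change -0.35, 95% interval -0.67 to -0.03, edgeR adjusted p = 0.110). The serine carboxypeptidase gene ctsa, whose product also protects sialidase and galactosidase, overlapped at 182 and 180 against 154, 181 and 168 CPM (log2 fold change -0.11, 95% interval -0.41 to 0.19).

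Inhibitors of cathepsins, the cystatins, were listed separately and are not matched by the name pattern. All 4 that were tested were called by edgeR, 1 higher and 3 lower, beside 19.9% of all genes. With either vector library left out 0 of them were called, and without miR-199 replicate 2 the calls were 1 higher and 2 lower. The most changed, cst14b.1, had 690 and 740 CPM in the vector libraries and 84.6, 169 and 130 CPM in the miR-199 libraries, and fell by 2.49 on the log2 scale (SE 0.28, edgeR adjusted p = 0.00705). Its groups were far apart. The related gene cst14a.1 fell by 1.17 and cst14a.2 fell by 0.95 on the log2 scale. Cystatin C, cst3, moved the other way, with 152 and 158 CPM against 254, 325 and 287 CPM, and rose by 0.90 on the log2 scale (SE 0.15, edgeR adjusted p = 0.0148).

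Of 17 glycosidase and sulfatase genes, 11 were tested, and they moved in both directions: 2 rose, 2 fell, and the median was -0.02. The called genes were 36.4% of the 11, beside 19.9% of all genes tested. The strongest fall of all the lysosomal genes was that of glb1l (chr9:12847154-12866694, plus strand), named for its likeness to beta-galactosidase. It had 242 and 270 CPM in the vector libraries and 103, 47.2 and 71.3 CPM in the miR-199 libraries. The highest miR-199 value was below the lowest vector value, and the gene fell by 1.79 on the log2 scale, a 3.46-fold lower level (SE 0.31, edgeR adjusted p = 0.0164). The beta-galactosidase gene glb1 itself was not called and was spread among the miR-199 libraries, with 78.3 and 64.6 CPM against 29.0, 75.2 and 40.9 CPM.

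The alpha-mannosidase gene man2b1 (chr11:31258140-31276054, minus strand), whose product trims mannose from glycoproteins, had 158 and 160 CPM against 95.8, 96.3 and 117 CPM. Its groups were apart, and it fell by 0.63 on the log2 scale (SE 0.14, edgeR adjusted p = 0.0284), a call lost without miR-199 replicate 2 (edgeR adjusted p = 0.0722). In the other direction, the sialidase gene neu4 (chr15:2490204-2497566, minus strand), whose product takes sialic acid from glycans, had 183 and 145 CPM against 433, 292 and 313 CPM. Each miR-199 library exceeded both vector libraries, and it rose by 1.08 on the log2 scale, 2.11-fold (SE 0.22, edgeR adjusted p = 0.0245).

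The sulfatase gene gnsa (chr4:4510057-4524280, plus strand), whose product acts on heparan and keratan sulfate, had 23.9 and 26.4 CPM against 52.9, 44.7 and 46.6 CPM. It rose by 0.93 on the log2 scale (SE 0.16, edgeR adjusted p = 0.0170), while its paralogue gnsb had a fold change of 0.14 and was not called. The lysosomal sialidase gene neu1 was higher in every miR-199 library without being called (log2 fold change 0.50, 95% interval 0.10 to 0.89, edgeR adjusted p = 0.0814). With library totals alone neu1 was called. For hexb, a hexosaminidase subunit gene, the levels 206 and 242 overlapped with 217, 236 and 209 CPM (log2 fold change -0.02, 95% interval -0.35 to 0.30). The exons of hexb overlap those of gfm2 on the other strand, and whether the counting used strand is not given, so its counts are uncertain. The sulfatase gene arsa, the alpha-galactosidase gene gla and the sialidase gene neu3.1 had fold changes of -0.61, -1.01 and 1.01 and were not called. Without miR-199 replicate 1 arsa was called.

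**Figure D3:**
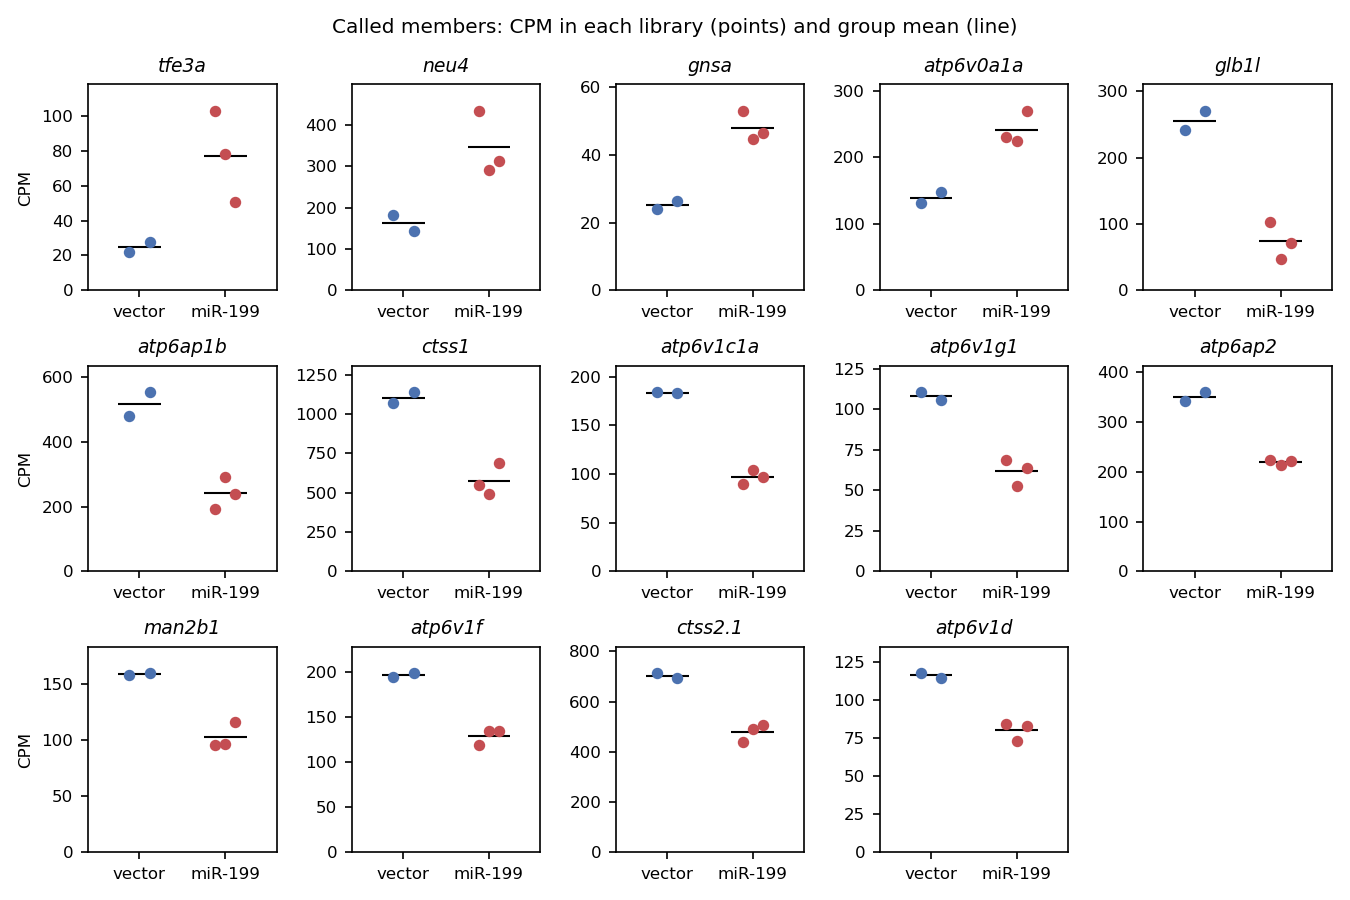
CPM (y axis, from 0) of the 14 called lysosomal genes in each library, with 1 point per library and a line at the group mean. The vector and miR-199 points do not overlap for any of the 14 genes, which were picked by their calls in the same libraries. Of all genes tested, 57.3% do not overlap. The spread among the miR-199 libraries is widest for tfe3a (50.6 to 103 CPM) and glb1l (47.2 to 103 CPM) relative to the mean.

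In the reported edgeR fit no gene of lipid handling was called (0 of 5, beside 19.9% of all genes tested). Of these 5, asah1a, npc1, npc2 and psap had an unadjusted p under 0.05. DESeq2 called asah1a, npc1 and npc2. With edgeR, library totals alone called asah1a and npc1, no filter called asah1a, and leaving out miR-199 replicate 3 called asah1a and npc2. The changes in the reported fit were split between directions. The acid ceramidase gene asah1a had 131 and 139 CPM in the vector libraries and 399, 296 and 175 CPM in the miR-199 libraries (log2 fold change 1.105, 95% interval 0.29 to 1.92, edgeR adjusted p = 0.0663). All 3 miR-199 libraries were above the vector libraries but differed widely among themselves, and its paralogue asah1b had a fold change of -0.07. The cholesterol exporters NPC1 and NPC2 pass cholesterol between them inside the lysosome, and their genes had fold changes of opposite sign.

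For npc1 the levels were 117 and 129 CPM against 158, 164 and 166 CPM (log2 fold change 0.40, 95% interval 0.12 to 0.69, edgeR adjusted p = 0.0597). For npc2 they were 244 and 253 CPM against 163, 187 and 195 CPM (log2 fold change -0.45, 95% interval -0.77 to -0.14, edgeR adjusted p = 0.0555). Neither gene overlapped between the groups, and neither was called. The saposin precursor gene psap, whose products help degrade sphingolipids, had 762 and 910 CPM against 477, 729 and 549 CPM (log2 fold change -0.52, 95% interval -1.02 to -0.01, edgeR adjusted p = 0.129).

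Membrane protein genes were not called either in the reported edgeR fit (0 of 7 tested, beside 19.9% of all genes tested). Of these 7, lamp2 alone had an unadjusted p under 0.05. DESeq2, and edgeR with library totals alone, called lamp2 only. The median log2 fold change of the 7 genes was -0.000284. The LAMP2 gene lamp2, a main glycoprotein of the lysosomal membrane, had 478 and 480 CPM against 656, 598 and 595 CPM (log2 fold change 0.36, 95% interval 0.07 to 0.66, edgeR adjusted p = 0.0821). All miR-199 values were above the vector values. The transmembrane protein gene laptm4a had 383 and 395 CPM against 477, 488 and 418 CPM (log2 fold change 0.24, 95% interval -0.07 to 0.56). For scarb2a, the receptor that carries glucocerebrosidase to the lysosome, replicate 1 stood apart, with 171 and 164 CPM against 58.4, 205 and 226 CPM. The genes cd63, lamp1, mcoln1a and mcoln2 had fold changes of -0.22 to 0.28. Of these, cd63 is listed on both a chromosome and an alternate sequence, so its counts are uncertain.

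Among the transcription factors, tfe3a (chr8:7778770-7809445, plus strand, 10 listed exons) rose. It had 21.8 and 27.6 CPM in the vector libraries and 103, 78.4 and 50.6 CPM in the miR-199 libraries. The groups did not overlap, though the highest miR-199 library had about 2 times the lowest. The gene rose by 1.64 on the log2 scale, 3.12-fold (SE 0.32, edgeR adjusted p = 0.0223), and was not called without miR-199 replicate 2 (edgeR adjusted p = 0.0627). It was also the most counted of the 3, with 72.1% to 93.3% of their summed RPKM in a library.

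The paralogue tfe3b, listed only on an alternate sequence of chromosome 11, had 2.24 and 0.805 CPM against 1.65, 5.02 and 5.68 CPM. Its fold change of 1.42 (95% interval -0.33 to 3.16, edgeR adjusted p = 0.207) was called only without miR-199 replicate 1 (edgeR adjusted p = 0.0478). For tfeb the levels were 3.27 and 3.07 CPM against 3.23, 2.75 and 1.55 CPM (log2 fold change -0.34, 95% interval -1.41 to 0.74), so no difference was detectable at this depth. The relatives mitfa, mitfb and tfec were not tested, and their levels together were at most 1.02 CPM in a library.

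Lysosomal genes outside the name pattern, from a separate list of enzymes, transporters and sorting proteins, were called 3 higher and 4 lower of 37 tested, 18.9%, close to the 19.9% of all genes, with a median log2 fold change of -0.00459. Without miR-199 replicate 2 the calls were 1 higher and 1 lower, with library totals alone 3 and 2, with DESeq2 3 and 8, and with either vector library left out 0. The enzyme genes aga, manba and naga fell by 1.12, 0.69 and 0.66 on the log2 scale. The cystine exporter gene ctns fell by 0.83. The amino acid sensor gene slc38a9, the thioesterase gene ppt2 and the carboxypeptidase gene scpep1 rose by 1.76, 1.33 and 0.62.

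**Figure D4:**
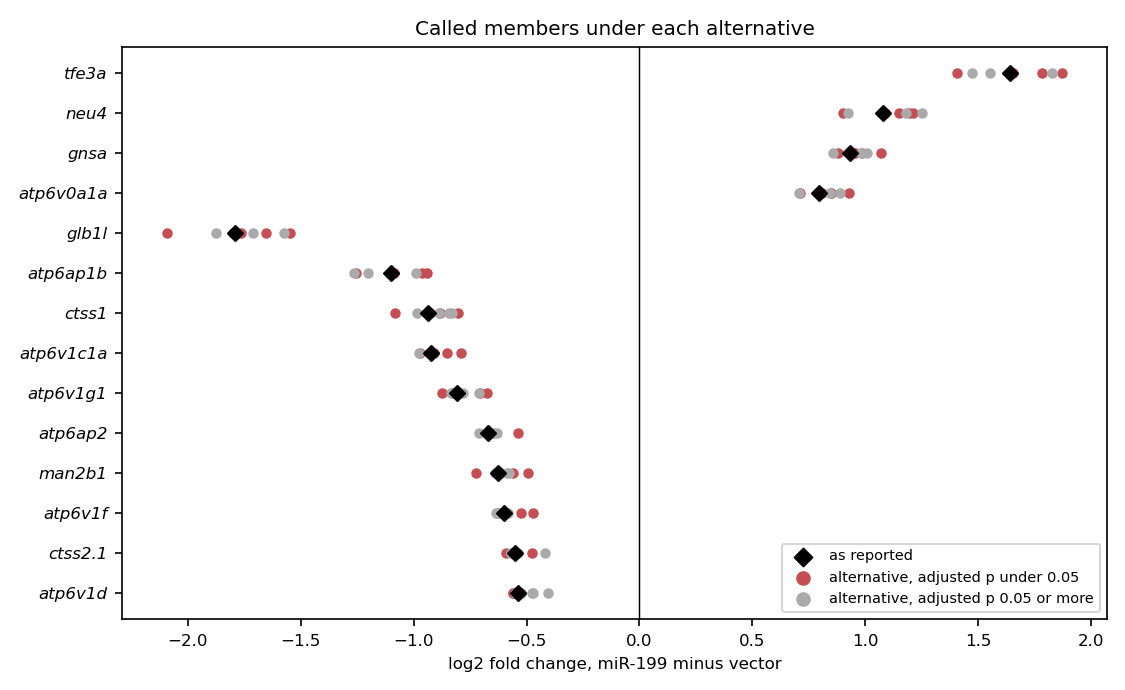
Log2 fold change (x axis) of the 14 called genes as reported (diamonds) and under each of 11 alternatives (points, red where the adjusted p stayed under 0.05). No gene crosses 0 under any alternative, and the grey points show where the call was lost.

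Some of the genes that were not tested are listed on more than 1 sequence, and others on 1 sequence alone. Of the 17, the 9 at 0 in all libraries were atp6ap1lb, atp6v0a1b, atp6v0d1, atp6v1c1b, ctslb, ctsll, laptm4b, neu3.3 and neu3.4. The 3-count limit that a count of 0 allows was 0.182 to 0.235 CPM per library, for counting error only. Of the other 8, atp6v0cb was counted 1 and 0 times with the vector and 21, 2 and 4 times with miR-199, and the rest (atp6v1aa, atp6v1b2, ctsbb, gba3, hexa, neu3.2 and neu3.5) had at most 4. Of the 71 genes, 10 are listed on both a chromosome and an alternate sequence of the assembly, and 8 of these 10 had at most 2 counts in every library (80.0%), 6 of them 0. The same was so for 1400 of the 1819 genes of the whole table listed like this (77.0%), against 2644 of 13045 genes on 1 sequence with no alternate (20.3%). How reads that match both positions were counted is not given in the sources used here. A 0 for the pump genes atp6v0d1 and atp6v1c1b, or 1 count in all for atp6v1aa or hexa, therefore does not show that the gene was not expressed.

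**Figure D5:**
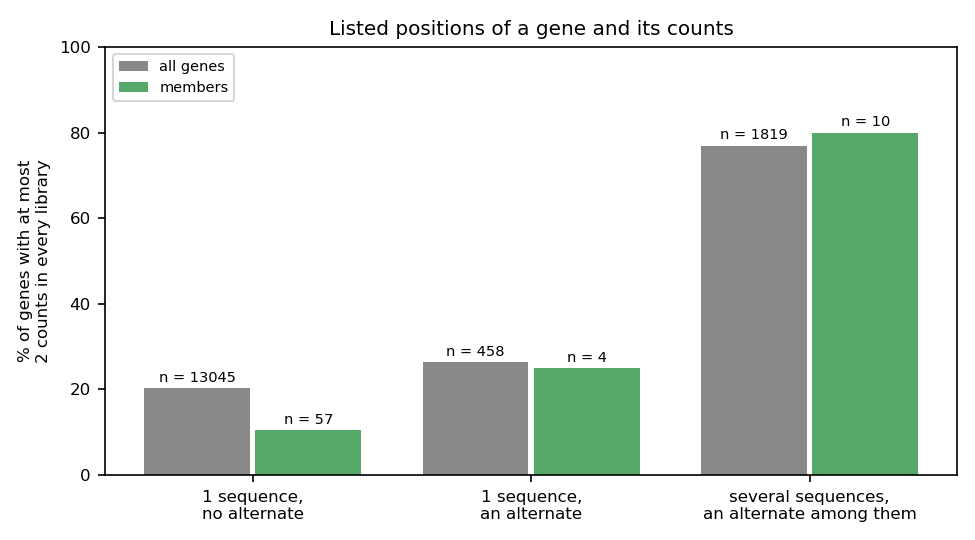
Share of genes with at most 2 counts in every library (y axis, percent), by where the gene is listed in the assembly, for all genes (grey) and the lysosomal genes (green), with the number of genes above each bar. The bars for genes listed on several sequences, 77.0% and 80.0%, stand far above the others.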

How the data were processed

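The mRNA values are raw counts per gene symbol, deposited by the authors without normalization, with exon coordinates and a length for each gene per the file headers. Per the submitters' processing notes, the tools were bcl2fastq, STAR 2.5, featureCounts of Subread 1.5.1 and edgeR 3.20.8, with the build GRCz11; which step each served, the use of strand and the treatment of reads with several placements are not given in the sources used here. No gene sequences were used. Vector replicate 2 and the 5 small RNA libraries are not analysed here.

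Genes were filtered with filterByExpr by group, scaled with TMM and tested with edgeR's quasi-likelihood test (two-sided, Benjamini-Hochberg over all 8897 genes tested). The SE is the absolute log2 fold change over the root of F, and 95% intervals use the fit's degrees of freedom. RPKM divides CPM by the listed length, which for genes listed on several sequences covers all copies, so their RPKM is not compared. Values in every library are given for each called gene with at least 1 CPM in a group and for the 2 most abundant genes per role. Genes named beyond that rule were chosen after their values were seen. The members, roles and lists were chosen with earlier results of these data known. The tools were R 4.3.3 with edgeR 4.0.16 and DESeq2 1.42.0, and Python 3.11.15 with pandas 2.3.3, numpy 2.4.6, matplotlib 3.10.9 and scipy 1.17.1. The alternatives were other scalings, no filter, DESeq2, a replicate block and leaving out each library.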

Additional observations from a re-analysis of the deposited data

How the results depend on the processing

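The 14 called genes kept their direction in all 11 alternatives, while 50 of those 154 values lost the call. These genes were picked by their calls in the same libraries. Their groups do not overlap, so leaving out 1 library could hardly reverse a direction. With library totals alone 9 lysosomal genes were called higher (52.9% of those called, against 28.6% as reported), and the median of the lysosomal genes was -0.078. Of all genes called, 62.8% were then higher, against 47.6% as reported. Among the called genes and the 2 most abundant per role, ctsa (0.020) and hexb (0.11) then changed sign. Other genes did too: lipid handling genes fitted higher went from 2 to 3 of 5, and membrane protein genes from 3 to 5 of 7. DESeq2 called 8 lysosomal genes higher and 12 lower, beside 2622 of all 12609 genes (20.8%). With each library left out in turn, the genes called ranged from 0 to 2195, the lysosomal genes called higher from 0 to 6 and lower from 0 to 11, and the median from -0.24 to -0.14; hexb, not called, ran from -0.14 to 0.10 and changed sign. Where a vector library is left out, the lone vector library is assumed to vary like the others. The replicate block (numbers 1 and 3) called 110 genes and 0 higher and 0 lower lysosomal genes, 19 of them at an unadjusted p under 0.05. The deviations of same-numbered libraries correlated at -0.235 and -0.181. With 2 vector libraries the deviations of one mirror those of the other, so these values cannot decide whether a number marks a shared batch. The labels tie no batch to a number. The search of promoters for CACGTG was not run. The limits are 2 vector libraries, no stated clutch or batch, and uncertain counts for genes with copies or overlapping exons.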

Other observations

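Autophagy delivers cell contents to the lysosome, and of 17 tested genes of that pathway 4 rose and 1 fell by edgeR, 29.4% beside 19.9% of all genes. Without miR-199 replicate 2 the calls were 3 higher and 0 lower, with either vector library left out there were 0, and DESeq2 called 5 higher and 3 lower. The kinase gene ulk1a, which starts autophagosome formation, had 111 and 116 CPM in the vector libraries and 205, 264 and 193 CPM in the miR-199 libraries, and the cargo receptor gene sqstm1 had 171 and 209 CPM against 338, 260 and 314 CPM. Both were higher in all miR-199 libraries, rising by 0.96 and 0.68 on the log2 scale (edgeR adjusted p = 0.0173 and 0.0401). The genes atg9a and wipi2, needed for membrane supply and growth of the autophagosome, rose by 0.96 and 0.76. The ATG8 family gene gabarapa fell by 1.16, with 122 and 117 CPM against 47.6, 42.6 and 70.4 CPM.

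Among genes of lysosomal signalling and fusion, 2 of 20 tested were called by edgeR, both higher. This share is below the 19.9% of all genes. With either vector library left out 0 were called, and DESeq2 called 3 higher and 4 lower. The folliculin partner gene fnip1, which acts where mTORC1 controls TFE3 and TFEB, had 86.0 and 79.5 CPM against 147, 140 and 140 CPM and rose by 0.78 on the log2 scale (SE 0.12, edgeR adjusted p = 0.0123). The mTORC1 inhibitor gene tsc2 had 18.1 and 13.8 CPM against 71.9, 40.6 and 42.1 CPM and rose by 1.69 (SE 0.32, edgeR adjusted p = 0.0203). The groups did not overlap for either gene.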
